A study of Drosophila melanogaster with 23 samples.

Results

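The start of organ formation was described from whole Drosophila melanogaster embryos of strain y; cn bw sp, by setting 3 windows of 8-11 h after egg laying (8-9, 9-10 and 10-11 h) against 3 windows of 5-8 h (5-6, 6-7 and 7-8 h). These 6 windows were chosen by their hour, though with earlier results of these data known. They belong to a series of 23 windows of 1 h, in which embryos from population cages were aged untreated and each window gave 1 library. RAMPAGE, which sequences the 5′ ends of capped transcripts, measured the use of transcription start site clusters (TSCs), and a gene's level is the sum of its TSCs in RPM, reads scaled to the total of the library's reads in TSCs. Windows of a block were taken as its replicates (n = 3 each). They are consecutive hours of 1 collection series, so their spread holds development within the block as well as technical error, and an exact permutation of 3 against 3 windows cannot go below p = 0.10. Values of a block are given below in the order of its windows.

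At the earlier stage the germ band, the segmented trunk of the embryo, lies folded over the dorsal side, neuroblasts delaminate from the ectoderm and the mesoderm is divided into its derivatives. Germ band retraction then brings the tail end back to the posterior pole, with the amnioserosa, an extraembryonic epithelium, as a partner tissue. In the same hours tracheal pits form a tubular network, myoblasts begin to fuse, neurons send out axons and most epidermal cells leave the division cycle. RNA came from whole embryos, so fewer cells of a type and less RNA per cell cannot be told apart.

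The libraries of 8-11 h held 2664024, 4119650 and 3430783 reads, and those of 5-8 h held 286206, 6685007 and 1193702. The window at 5-6 h was thus the shallowest, where 1 read equals 3.49 RPM and a count of 0 allows up to 10.5 RPM (3 reads, counting error only). The 6 windows graded into each other. Over the 5810 genes with at least 10 RPM in at least 3 windows, log2(RPM + 1) at 8-9 h correlated with 9-10 h at r = 0.94 and with 10-11 h at r = 0.91, but also with 6-7 h at r = 0.93 and with 7-8 h at r = 0.92. The lowest correlation, 0.74, was between 10-11 h and 5-6 h. These coefficients are across genes, which are not independent replicates, and they share the depth of each library.

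**Figure D1:**
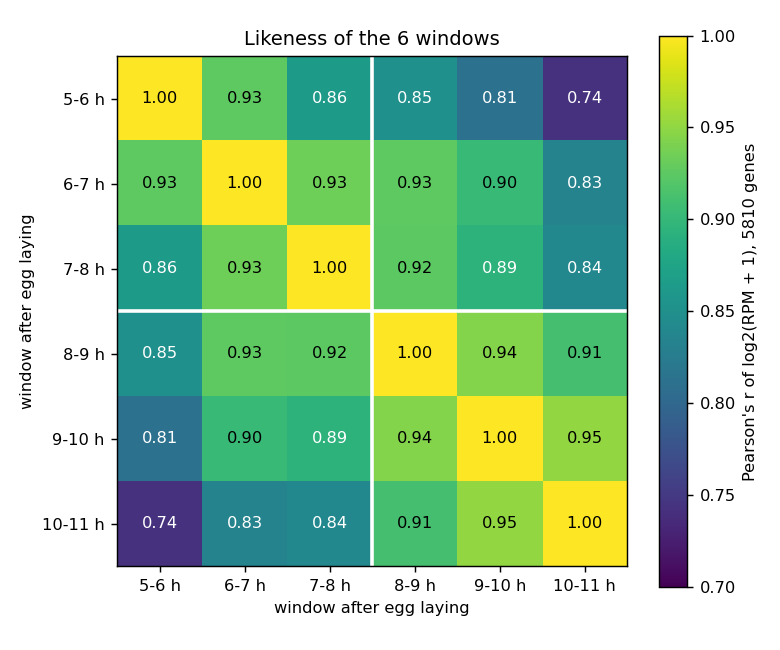
Pearson's r of log2(RPM + 1) between each pair of the 6 windows over 5810 genes; both axes list windows in hours after egg laying, and white lines part the blocks. The window at 8-9 h was about as like 6-7 h (0.93) as 10-11 h (0.91).

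No gene passed the test for a difference between the block means. limma on log2(RPM + 1) called 0 of 5810 genes at an adjusted p (Benjamini-Hochberg) below 0.05, a background of 0%, with 0.0575 as the smallest adjusted p, while 1338 genes had an unadjusted p below 0.05. edgeR on the recovered reads also called 0 genes, and DESeq2 called 570 (9.81%), of which 412 were higher in 8-11 h (7.09%) and 158 lower (2.72%). Taking the spread from the 8 blocks of all 23 windows gave 333 calls (5.73%), 278 higher (4.78%) and 55 lower (0.947%). limma gave 188 calls without the window at 8-9 h and 74 without 7-8 h, and 0 without any other single window. It gave 32 calls, 25 higher and 7 lower, once every library had been thinned at random to about the reads of 5-6 h. The values are therefore given as descriptions. A gene is called separated where all 3 windows of one block exceeded all 3 of the other. Where a gene reached 10 RPM only in the 3 windows of 1 block, the filter fixed this outcome. Such genes stay in all counts below. Of the genes tested, 970 were separated with 8-11 h higher (16.7%) and 837 with 8-11 h lower (14.4%). With fewer windows to part these shares grow: without 7-8 h they were 24.3% and 22.4%, and without 8-9 h 23.2% and 22.9%, and counts of listed genes without a window are to be read against them. A further test was added after the absence of calls had been seen. It asks another question, whether log2(RPM + 1) followed the hour in a straight line over the 6 windows. This slope was called upward in 587 genes (10.1%) and downward in 328 (5.65%), or 368 and 141 without the shallow window at 5-6 h. Because it was chosen after that result, and made more false calls on simulated data than its threshold allows, its calls are given only beside the values.

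Many of the separated genes with wide gaps in level reached their highest level at other stages. Differences of at least 2-fold between block means were found in 474 separated genes higher in 8-11 h (8.16% of those tested) and in 198 lower (3.41%). Of the 474, 93 had the highest window of the whole series within 8-11 h and 151 within 11-14 h, and 335 stepped up at each hour of 8-11 h. Of the 198, 85 were highest within 5-8 h, 58 within 2-5 h and 51 within 0-2 h. At 5-6 h 86 of the 474 had no read, and 265 of the 474 were under 10 RPM in at least 1 of the 6 windows, so many of these gaps rest on low values. Some genes reached 10 RPM in the higher block alone, so the filter fixed their separation. Of the leading genes below, Osi7, CG9411, smog, CG8170, CG10211 and Ets98B did so in 8-11 h. Sr-CII and CG13465 did so in 5-8 h.

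Among the genes with a mean of at least 25 RPM in the higher block, TwdlF, of the Tweedle family of cuticle proteins, stood furthest apart on the log2 scale, though its level at 8-9 h is subject to the limit on late genes given with the stage markers. It had 120.1, 57.3 and 349 RPM in 8-11 h, against 3.49, 3.59 and 12.6 RPM in 5-8 h (log2 difference 4.37, SE 0.70, limma adjusted p = 0.0726). Its highest window was 15-16 h, at 23185 RPM. CG13362 had 314, 848 and 1839 RPM in 8-11 h, against 28.0, 92.6 and 51.1 RPM in 5-8 h (3.92, SE 0.66, adjusted p = 0.0726). Osi7, of the Osiris gene family, had 42.4, 66.3 and 266 RPM in 8-11 h, against 3.49, 8.68 and 7.54 RPM in 5-8 h. In all 3 genes the window at 10-11 h was the highest of the 6. The nuclear receptor gene Hr3, whose main TSC lies at chr2R:6115410-6115479 on the minus strand (dm3), had 102, 236 and 515 RPM in 8-11 h, against 6.99, 24.1 and 41.9 RPM in 5-8 h (3.51, SE 0.73, adjusted p = 0.0787). Mlc2, a myosin light chain gene, had 19.9, 29.9 and 71.1 RPM in 8-11 h, against 0, 1.80 and 13.4 RPM in 5-8 h. The other 7 of the 12 leading genes were CG9411, CG42673, smog (a receptor for the secreted signal Fog), CG8170, CG4306, CG10211 and Ets98B (an ETS transcription factor), with log2 differences between 3.40 and 4.04. Adjusted p lay between 0.0726 and 0.113 over the 12 genes.

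On the other side stood CG10035, with 14.3, 3.16 and 2.91 RPM in 8-11 h, against 339, 140.5 and 35.2 RPM in 5-8 h (log2 difference -4.26, SE 0.85, limma adjusted p = 0.0787). Its level was lower in each later window of the 6. The scavenger receptor gene Sr-CII had 1.88, 0.485 and 0.583 RPM in 8-11 h, against 48.9, 16.3 and 10.1 RPM in 5-8 h. CG4440 was abundant, with 1399, 575 and 133 RPM in 8-11 h, against 3945, 2828 and 1807 RPM in 5-8 h. Scabrous (sca), a secreted protein gene of neurogenesis, had 21.0, 12.4 and 10.5 RPM in 8-11 h, against 126, 103 and 49.4 RPM in 5-8 h (-2.54, SE 0.42, adjusted p = 0.0726). Several of these 12 genes are known from early neurogenesis or from the visceral mesoderm, and l(1)sc, ac, Brd, BobA, bap and jeb are given with their groups. CG13465 and CG8654 complete the set, with log2 differences of -3.19 and -2.41, and adjusted p over the 12 lay between 0.0726 and 0.149. None of the 12 was highest in a window after 7-8 h.

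**Figure D2:**
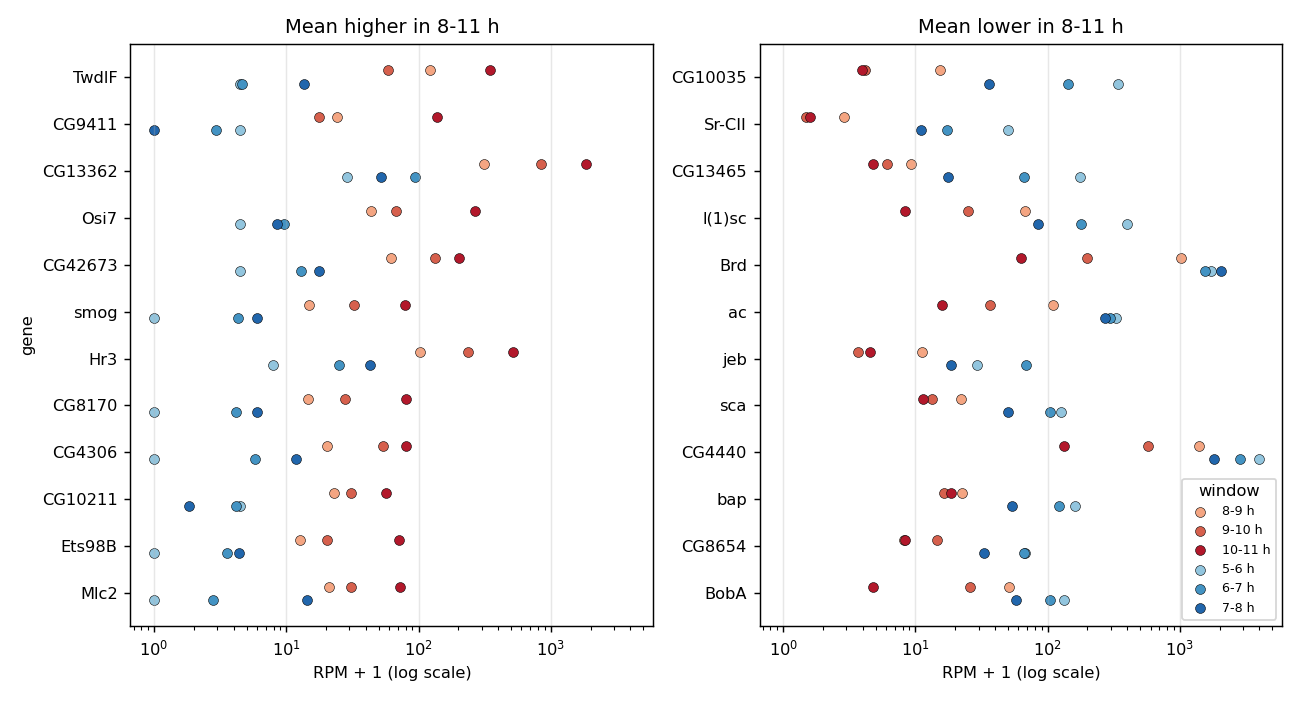
RPM + 1 (log scale) in each window for the 12 separated genes with the largest difference in each direction; red points are the windows of 8-11 h and blue points those of 5-8 h. In no gene do red and blue points overlap, which the choice of genes fixes; TwdlF spans 57.3 to 349 RPM in 8-11 h.

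Among genes of neuroblast formation more were separated lower in 8-11 h than higher, and 10 of 21 overlapped. Proneural genes give ectodermal cells the ability to become neural, and neuroblasts then pass through a series of temporal transcription factors. Of 21 tested members, 3 were separated higher and 8 lower, against 16.7% and 14.4% of all genes, and the median log2 difference was -0.51, against -0.01 over all genes. The proneural gene achaete (ac; main TSC chrX:264052-264075, plus strand) had 109, 35.7 and 14.9 RPM in 8-11 h, against 328, 295 and 269.8 RPM in 5-8 h (-2.90, SE 0.61, limma adjusted p = 0.0787). Its relative l(1)sc had 66.4, 23.8 and 7.29 RPM in 8-11 h, against 398, 179 and 83.8 RPM in 5-8 h. Both genes were low in 10-11 h and their blocks did not overlap. asense (ase), a marker of neural precursors, had 123, 334 and 192 RPM in 8-11 h, against 538, 638 and 376 RPM in 5-8 h. The temporal factors differed from each other: pdm2 had 44.3, 29.6 and 29.1 RPM in 8-11 h, against 192, 101 and 102 RPM in 5-8 h, whereas castor (cas), which acts after it in neuroblasts, had 93.8, 72.6 and 84.5 RPM in 8-11 h, against 28.0, 51.0 and 41.0 RPM in 5-8 h. nerfin-1, a zinc finger gene of early neurons, was also higher, with 927, 845 and 750 RPM in 8-11 h, against 332, 534 and 494 RPM in 5-8 h (0.91, SE 0.23, adjusted p = 0.0932). The slope was called downward in 6 of the 21 genes and upward in 1, against 5.65% and 10.1% of all genes.

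Targets of the Notch receptor and the Bearded family, which together set how many cells of a proneural cluster become neural, had the lowest median of any list, -0.92. Of 17 tested members 5 were separated lower (29.4%, against 14.4% of all genes) and 1 higher (5.88%, against 16.7%). The slope was called downward in 8 and upward in 1, against 5.65% and 10.1% of all genes. Without 7-8 h 11 members were separated lower (64.7%, against 22.4% of all genes), and without 8-9 h 8 were (47.1%, against 22.9%). Bearded (Brd; main TSC chr3L:14965677-14965784, plus strand) had 1023, 198 and 62.1 RPM in 8-11 h, against 1716, 1553 and 2056 RPM in 5-8 h (-2.91, SE 0.86, limma adjusted p = 0.119). Its level thus varied more within 8-11 h than within 5-8 h. E(spl)m5-HLH, a Notch-induced repressor, had 421, 147 and 58.3 RPM in 8-11 h, against 1537, 1098 and 411 RPM in 5-8 h, so that 8-9 h overlapped 7-8 h. E(spl)m8-HLH had 4.50, 248 and 108 RPM in 8-11 h, against 231, 463 and 225 RPM in 5-8 h, with 8-9 h far below both neighbours. BobA had 50.3, 25.0 and 3.79 RPM in 8-11 h, against 133, 104 and 56.1 RPM in 5-8 h. It has near-identical copies in the genome, between which the counting could have divided reads. The opposite order was seen in E(spl)m6-BFM, with 124, 156 and 256 RPM in 8-11 h, against 3.49, 20.9 and 48.6 RPM in 5-8 h (3.34, SE 0.79, adjusted p = 0.0898). The receptor gene N itself had 5488, 4123 and 3973 RPM in 8-11 h, against 3609, 4805 and 2368 RPM in 5-8 h, and its blocks overlapped.

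Among neuronal genes more were separated higher. Of 22 tested members of the neuron and axon list, 12 were separated higher (54.5%, against 16.7% of all genes) and 2 lower (9.09%, against 14.4%). Their median log2 difference was 0.76. The slope was called upward in 9 and downward in 0, against 10.1% and 5.65% of all genes. Of the 12, futsch, beat-Ia and Lim3 reached 10 RPM only in 8-11 h, so the filter fixed their separation. The RNA-binding protein gene elav, a general neuronal marker, had 116, 122 and 113 RPM in 8-11 h, against 66.4, 58.5 and 83.8 RPM in 5-8 h (0.76, SE 0.22, limma adjusted p = 0.114). Its relative fne had 72.1, 100.2 and 127 RPM in 8-11 h, against 10.5, 17.7 and 26.0 RPM in 5-8 h (2.45, SE 0.37, adjusted p = 0.0726). The 2 relatives thus differed by unequal amounts, with elav already at a higher level in the earlier block. The gene of the amyloid precursor protein homologue, Appl, had 90.1, 156 and 210 RPM in 8-11 h, against 14.0, 28.3 and 67.9 RPM in 5-8 h. The synaptic active zone gene brp had 25.9, 35.7 and 112 RPM in 8-11 h, against 3.49, 9.27 and 17.6 RPM in 5-8 h. beat-Ia, which acts in motor axon guidance, had 15.8, 25.7 and 49.3 RPM in 8-11 h, against 0, 3.29 and 4.19 RPM in 5-8 h. All 3 were highest at 10-11 h among the 6 windows. futsch, which encodes a microtubule-binding protein of axons, had 16.5, 27.7 and 60.6 RPM in 8-11 h, against 3.49, 5.68 and 5.03 RPM in 5-8 h. The homeodomain gene zfh1, used in motor neurons and also in mesoderm, had 328, 351 and 402 RPM in 8-11 h, against 143, 194 and 175 RPM in 5-8 h (1.08, SE 0.20, adjusted p = 0.078). The adhesion gene Nrt had 319, 180 and 204 RPM in 8-11 h, against 367, 383 and 410 RPM in 5-8 h, and the semaphorin receptor gene PlexA was the other member separated lower. The synaptic vesicle gene nSyb had 23.3, 37.1 and 124 RPM in 8-11 h, against 14.0, 5.24 and 10.9 RPM in 5-8 h (2.23, SE 0.63, adjusted p = 0.113). Of the other synaptic genes listed, Syt1, VGlut and Gad1 were below the filter. Of 6 tested glial genes 3 were separated higher (50%, against 16.7% of all genes) and 1 lower (16.7%, near the 14.4% of all genes). The glial regulator repo was below the filter, with 7.88, 8.01 and 10.5 RPM in 8-11 h, against 0, 1.20 and 6.70 RPM in 5-8 h.

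**Figure D3:**
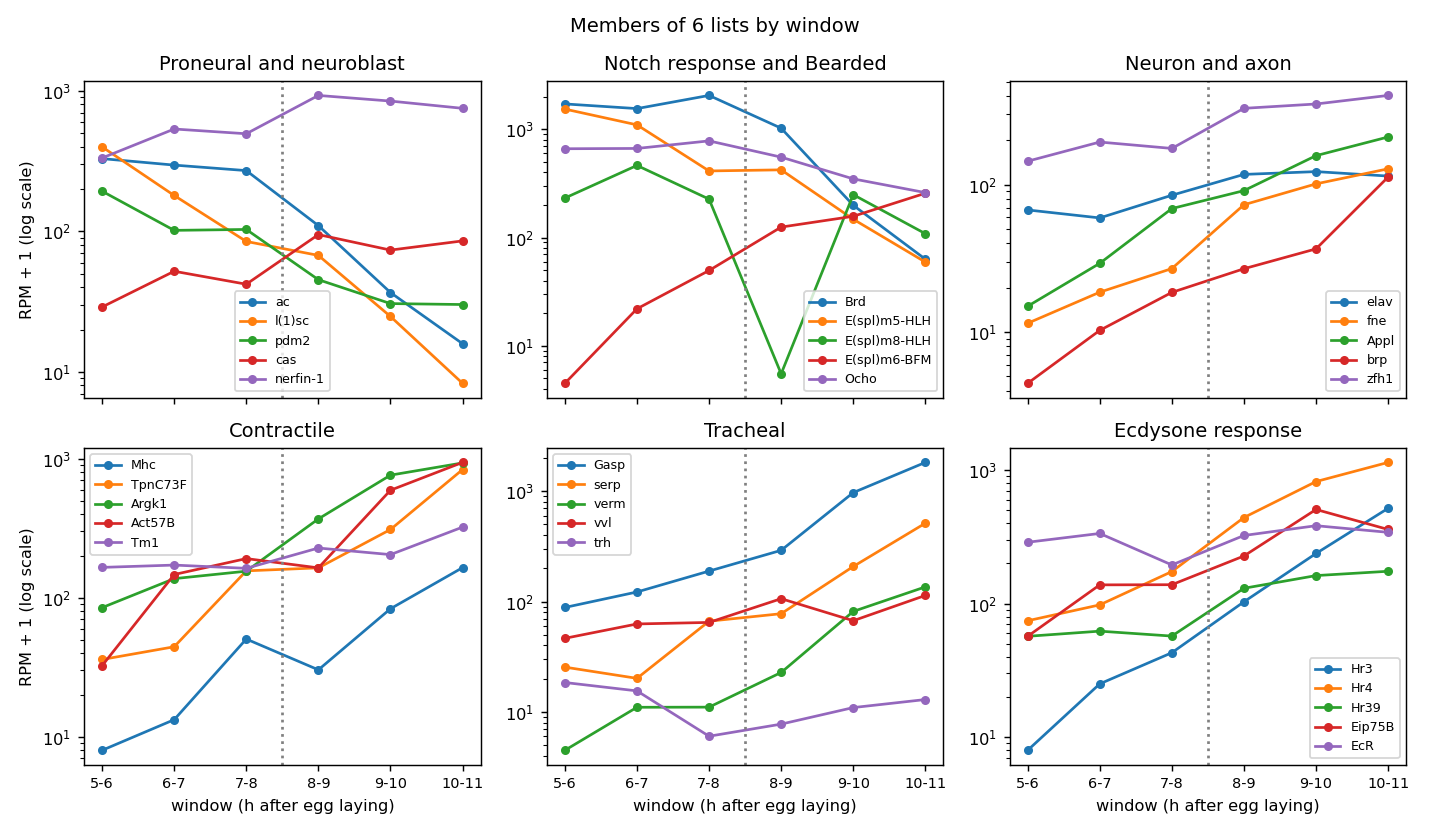
RPM + 1 (log scale) of 5 members of each of 6 gene lists in the 6 windows, in hours after egg laying; each point is 1 library and the dotted line parts the blocks. Brd declines to 62.1 RPM at 10-11 h while Gasp reaches 1818 RPM; E(spl)m8-HLH dips to 4.50 RPM at 8-9 h.

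Among both muscle regulators and contractile genes more were separated higher than lower, with all windows included. Of 19 tested regulators of mesoderm and muscle, 8 were separated higher (42.1%, against 16.7% of all genes). Another 3 were lower (15.8%, near the 14.4% of all genes), and the median was 0.43. Mef2, which drives muscle differentiation, had 885, 704 and 595 RPM in 8-11 h, against 374, 323 and 525 RPM in 5-8 h (0.85, SE 0.25, limma adjusted p = 0.119). stripe (sr), needed in tendon cells, had 29.3, 43.0 and 61.8 RPM in 8-11 h, against 0, 6.88 and 14.2 RPM in 5-8 h. The visceral mesoderm gene bagpipe (bap) stood lower, with 21.4, 15.5 and 17.5 RPM in 8-11 h, against 161, 120.4 and 52.8 RPM in 5-8 h (-2.42, SE 0.41, adjusted p = 0.0726). So did jeb, which encodes the ligand of the receptor Alk, with 10.1, 2.67 and 3.50 RPM in 8-11 h, against 28.0, 67.0 and 17.6 RPM in 5-8 h. The receptor gene Alk overlapped between blocks, with 12.8, 9.22 and 12.5 RPM in 8-11 h, against 112, 54.7 and 5.86 RPM in 5-8 h. biniou (bin), which acts with bap, was the third regulator separated lower. Of 15 tested contractile genes 8 were separated higher (53.3%, against 16.7% of all genes) and 0 lower (against 14.4%). The slope was called upward in 10 of them, against 10.1% of all genes, and the median was 2.09. Without 7-8 h 13 were separated higher (86.7%, against 24.3% of all genes) and 1 lower. Arginine kinase (Argk1) had 368, 760 and 931 RPM in 8-11 h, against 83.9, 136 and 154 RPM in 5-8 h (2.39, SE 0.38, adjusted p = 0.0726). Myosin heavy chain (Mhc) had 29.3, 82.3 and 164 RPM in 8-11 h, against 6.99, 12.3 and 49.4 RPM in 5-8 h. The troponin C gene TpnC73F had 163, 309 and 834 RPM in 8-11 h, against 34.9, 43.4 and 155 RPM in 5-8 h. The blocks of Mhc overlapped, because 7-8 h lay above 8-9 h, and the same held for Act57B, with 163, 592 and 939 RPM in 8-11 h, against 31.4, 146 and 190 RPM in 5-8 h. Tm1 and Actn, which are also used outside muscle, had differences of 0.57 and -0.35, and Actn and Msp300 were the only tested contractile genes with a difference below 0.

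The tracheal list held both early regulators and genes of the tube wall, and the widest gaps lay in genes of the tube wall. Of 12 tested members 7 were separated higher (58.3%, against 16.7% of all genes) and 0 lower (against 14.4%), with a median of 0.70. Gasp, a chitin-binding protein gene, had 290, 968 and 1818 RPM in 8-11 h, against 87.3, 121 and 188 RPM in 5-8 h (2.66, SE 0.62, limma adjusted p = 0.0891). The chitin deacetylase gene serp had 76.6, 207 and 511 RPM in 8-11 h, against 24.5, 19.1 and 65.3 RPM in 5-8 h. A second deacetylase gene, verm, had 21.8, 80.3 and 135 RPM in 8-11 h, against 3.49, 10.0 and 10.1 RPM in 5-8 h. These genes also act in the epidermis, so their levels are not a measure of tracheae alone. The tracheal determinant trachealess (trh) had 6.76, 9.95 and 12.0 RPM in 8-11 h, against 17.5, 14.5 and 5.03 RPM in 5-8 h, and its blocks overlapped. In the epidermal and septate junction list 4 of 18 tested members were separated higher (22.2%, against 16.7% of all genes). Another 1 was lower (5.56%, against 14.4%), and the median was 0.43. Without 7-8 h 8 were separated higher (44.4%, against 24.3% of all genes), and without 8-9 h 7 were (38.9%, against 23.2%). coracle (cora), a septate junction gene, had 125, 157 and 287 RPM in 8-11 h, against 14.0, 59.4 and 46.1 RPM in 5-8 h (2.36, SE 0.55, adjusted p = 0.0882). The chitin synthase gene kkv had 24.4, 54.4 and 120 RPM in 8-11 h, against 10.5, 10.8 and 18.4 RPM in 5-8 h. Ddc, a late enzyme of cuticle hardening, had 0 reads in all 6 windows.

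Genes known to be required for germ band retraction and for the amnioserosa stood close to all genes in their median. Of 16 tested members 2 were separated higher and 2 lower (12.5% each, against 16.7% and 14.4% of all genes). The median log2 difference was 0.08, with members between -1.55 and 0.97. Without 8-9 h 5 were separated higher (31.2%, against 23.2% of all genes) and 3 lower (18.8%, against 22.9%). Without 7-8 h 3 were higher (18.8%, against 24.3%) and 4 lower (25%, against 22.4%). The zinc finger genes peb and ush, whose loss blocks retraction, overlapped between blocks: peb had 187, 143 and 165 RPM in 8-11 h, against 105, 190 and 251 RPM in 5-8 h (-0.06, SE 0.32, limma adjusted p = 0.937), and ush had 47.3, 32.8 and 30.9 RPM in 8-11 h, against 21.0, 49.4 and 44.4 RPM in 5-8 h (0.02, SE 0.37, adjusted p = 0.984). The windows within each block spread more widely than the block means differed in both genes. Of the T-box genes of the amnioserosa, Doc3 had 69.8, 71.1 and 37.9 RPM in 8-11 h, against 377, 166 and 77.1 RPM in 5-8 h, and Doc2 was also separated lower. The LIM-homeodomain gene tup was separated higher, with 19.1, 25.7 and 18.4 RPM in 8-11 h, against 14.0, 12.9 and 9.21 RPM in 5-8 h (0.77, SE 0.32, adjusted p = 0.202). The laminin gene wb was also separated higher, with 75.8, 72.6 and 71.7 RPM in 8-11 h, against 69.9, 61.2 and 57.8 RPM in 5-8 h. In dorsal closure, which follows retraction, 1 of 12 tested genes was separated higher (8.33%, against 16.7% of all genes) and 0 lower (against 14.4%). Without 8-9 h 4 were higher (33.3%, against 23.2% of all genes) and 1 lower. The gene separated with all windows was scaf, with 13.9, 38.1 and 74.6 RPM in 8-11 h, against 0, 5.53 and 10.9 RPM in 5-8 h. The JNK phosphatase gene puc had 51.4, 77.2 and 85.4 RPM in 8-11 h, against 24.5, 56.8 and 38.5 RPM in 5-8 h. Of 11 tested cell death genes 1 was separated higher and 1 lower (9.09% each, against 16.7% and 14.4% of all genes). Without 7-8 h 4 were higher (36.4%, against 24.3% of all genes) and 2 lower (18.2%, against 22.4%). Without 8-9 h 3 were higher (27.3%, against 23.2%) and 2 lower (18.2%, against 22.9%). The death inducer hid had 126, 101 and 88.9 RPM in 8-11 h, against 52.4, 75.2 and 62.8 RPM in 5-8 h, and the inhibitor Diap1 had 1424, 1324 and 1225 RPM in 8-11 h, against 1548, 1630 and 1474 RPM in 5-8 h.

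Few genes of other organs were tested, and with all windows included their shares stood on both sides of those of all genes. Of 13 tested genes of gut, salivary gland and Malpighian tubules, 3 were separated higher (23.1%, against 16.7% of all genes) and 1 lower (7.69%, against 14.4%). Without 8-9 h 6 were higher (46.2%, against 23.2% of all genes), and without 7-8 h 4 were (30.8%, against 24.3%). The adhesion gene Fas3 had 816, 1502 and 1981 RPM in 8-11 h, against 217, 377 and 587 RPM in 5-8 h (1.88, SE 0.43, limma adjusted p = 0.0869), and the homeodomain gene ct had 373, 333 and 626 RPM in 8-11 h, against 101, 182 and 218 RPM in 5-8 h. huckebein (hkb), a gene of the gut ends, had 86.3, 70.6 and 62.1 RPM in 8-11 h, against 266, 177 and 89.6 RPM in 5-8 h. The salivary gland factor gene sage never exceeded 5.03 RPM in the 6 windows. Of the list for hemocytes, fat body and basement membrane only 3 members passed the filter, among them the basement membrane gene Ndg, with 72.4, 135 and 156 RPM in 8-11 h, against 34.9, 69.4 and 52.8 RPM in 5-8 h. The hemocyte gene Pxn was below the filter, and Hml and NimC1 had 0 reads.

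Segmentation genes had a median of -0.42. Of 19 tested members 5 were separated lower (26.3%, against 14.4% of all genes) and 2 higher (10.5%, against 16.7%). Without 7-8 h 10 were lower (52.6%, against 22.4% of all genes), but without 8-9 h only 5 were (26.3%, against 22.9%). ci, the transcription factor of Hedgehog signalling, had 291, 246 and 225 RPM in 8-11 h, against 479, 387 and 442 RPM in 5-8 h (-0.78, SE 0.19, limma adjusted p = 0.0905), and slp1 had 251, 343 and 307 RPM in 8-11 h, against 874, 620 and 345 RPM in 5-8 h. engrailed (en), which marks posterior compartments, overlapped, with 158, 146 and 104 RPM in 8-11 h, against 161, 188 and 108 RPM in 5-8 h. Of 7 tested Hox genes, 3 were separated higher (42.9%, against 16.7% of all genes) and 0 lower (against 14.4%), with a median of 0.06. Abd-B, the most posterior of them, had 245, 214 and 224 RPM in 8-11 h, against 150, 187 and 189 RPM in 5-8 h, and abd-A had 198, 197 and 187 RPM in 8-11 h, against 133, 168 and 116 RPM in 5-8 h.

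Among cell cycle genes more were separated lower in 8-11 h than higher. Of 24 tested members 11 were separated lower (45.8%, against 14.4% of all genes), 2 higher (8.33%, against 16.7%) and 11 overlapped. The median was -0.88, and the slope was called downward in 12 and upward in 0, against 5.65% and 10.1% of all genes. Without 7-8 h 17 were separated lower (70.8%, against 22.4% of all genes), and without 8-9 h 15 were (62.5%, against 22.9%). Among subunits of the replicative helicase, Mcm6 had 77.0, 46.4 and 16.9 RPM in 8-11 h, against 154, 117 and 149.9 RPM in 5-8 h (-1.80, SE 0.50, limma adjusted p = 0.11), and Mcm5 had 26.7, 20.4 and 17.2 RPM in 8-11 h, against 80.4, 46.4 and 32.7 RPM in 5-8 h. BubR1, of the spindle checkpoint, had 130.2, 93.7 and 55.7 RPM in 8-11 h, against 231, 202 and 137 RPM in 5-8 h. The members separated higher were string (stg), the phosphatase that drives entry into mitosis, with 634, 482 and 463 RPM in 8-11 h, against 377, 312 and 311 RPM in 5-8 h, and fzr, which promotes cyclin destruction and exit from division, with 328, 372 and 385 RPM in 8-11 h, against 262, 253 and 311 RPM in 5-8 h. Cyclin A (CycA) overlapped between the blocks, with 2108, 1646 and 1312 RPM in 8-11 h, against 2009, 2318 and 1632 RPM in 5-8 h.

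Ecdysone is the steroid hormone of moulting, and a pulse of it occurs in mid-embryogenesis. Of 10 tested genes of this list 5 were separated higher (50%, against 16.7% of all genes) and 0 lower (against 14.4%). All 5 also had an upward slope, which 10.1% of all genes had, and the median was 1.42. Besides Hr3, the receptor gene Hr4 had 439, 817 and 1136 RPM in 8-11 h, against 73.4, 96.8 and 173 RPM in 5-8 h (2.78, SE 0.42, limma adjusted p = 0.0726). Hr39 had 129, 161 and 173 RPM in 8-11 h, against 55.9, 61.2 and 56.1 RPM in 5-8 h (1.39, SE 0.21, adjusted p = 0.0726). Hr3, Hr4 and Hr39 had their highest window of the whole series at 10-11 h. Eip75B, another early response gene, had 226, 505 and 357 RPM in 8-11 h, against 55.9, 137 and 137 RPM in 5-8 h. Ecdysone receptor (EcR) overlapped, with 322, 381 and 340 RPM in 8-11 h, against 287, 334 and 194 RPM in 5-8 h. The synthesis enzyme gene dib was below the filter, so it is not among the 10 tested genes and their count of 0 lower leaves it out. It ran the other way at low level, with 2.25, 2.18 and 0.583 RPM in 8-11 h, against 38.4, 15.0 and 8.38 RPM in 5-8 h.

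**Figure D4:**
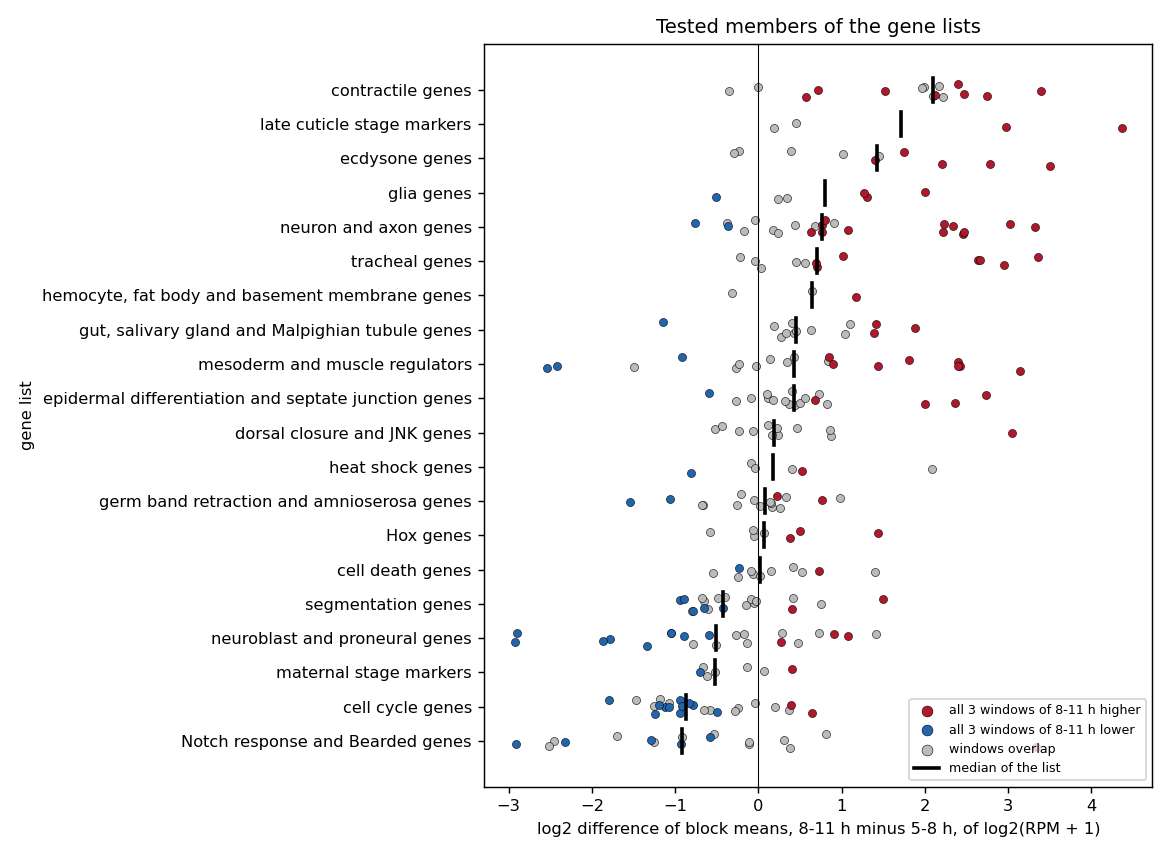
Difference of block means of log2(RPM + 1), 8-11 h minus 5-8 h, for the tested members of each gene list; each point is a gene, coloured by whether its windows are separated, and black bars are medians. Medians range from -0.92 for Notch response and Bearded genes to 2.09 for contractile genes.

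Stage markers moved within the blocks and not only between them. The 14 late cuticle genes summed to 451, 141 and 453 RPM in 8-11 h, against 59.4, 24.5 and 395 RPM in 5-8 h. At 8-9 h and 7-8 h most of this was Cpr47Eg, with 304, 19.7 and 14.9 RPM in 8-11 h, against 28.0, 4.04 and 267 RPM in 5-8 h. Its highest level in the series was 50339 RPM at 21-22 h. Without TwdlF and Cpr47Eg the sums were 26.7, 63.6 and 88.6 RPM in 8-11 h, against 28.0, 16.9 and 115 RPM in 5-8 h. TwdlF and dyl, both with far higher levels at later stages, were also higher at 8-9 h than at 9-10 h, and Mhc was higher at 7-8 h than at 8-9 h. Whether reads of other barcodes in the pool, or older embryos in the collections of 7-8 h and 8-9 h, gave these values was not tested, so reads of late genes in these windows may not be expression at that hour. The maternal markers in the table summed to between 581 and 814 RPM in 8-11 h, and to between 632 and 729 RPM in 5-8 h. Heat shock genes summed to between 497 and 626 RPM in 8-11 h, and to between 353 and 488 RPM in 5-8 h, and the part of this in the results was not tested.

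At the level of single TSCs limma likewise called 0 of 6822 TSCs (background 0%, 1530 at an unadjusted p below 0.05), but edgeR called 170 (2.49%), which it did for 0 genes, and DESeq2 called 678 (9.94%). Without a filter limma called 374 TSCs. Among 114 tested TSCs that the authors assigned to no gene, limma called 0 (29 at an unadjusted p below 0.05), edgeR 3 (2.63%) and DESeq2 18 (15.8%). Of these 114, 18 were separated higher (15.8%) and 19 lower (16.7%), close to the shares of all TSCs, 16.7% and 13.7%. The TSC at chr2L:22275894-22275984 on the minus strand had 18.4, 39.1 and 74.0 RPM in 8-11 h, against 3.49, 2.54 and 10.9 RPM in 5-8 h. One on the X chromosome, chrX:4981477-4981584 on the plus strand, had 16.1, 22.8 and 40.5 RPM in 8-11 h, against 0, 5.98 and 8.38 RPM in 5-8 h. The others that stood highest were on 3LHet and 3L. Like the one on X they reached 10 RPM only in 8-11 h, so the filter fixed their separation. All 4 that stood lowest lay on sequence not placed on a chromosome arm (U or Uextra). The largest of these, chrUextra:4877866-4877881, had 4.88, 34.2 and 28.9 RPM in 8-11 h, against 157, 88.3 and 63.7 RPM in 5-8 h. Among these 4, chrUextra:15887294-15887305 and chrU:3290725-3290825 reached 10 RPM only in 5-8 h, so the filter fixed their separation. Unplaced sequence is often repetitive, so that reads may belong to several copies.

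Use of alternative start sites within a gene was compared in the 753 genes whose 2 strongest TSCs (by RPM summed over the 6 windows) each reached 10 RPM in at least 1 of the 6 windows and together held at least 20 reads in every window. limma on the log2 ratio of their reads, with 0.5 reads added to each, called 0 of 753 (background 0%, smallest adjusted p 0.0544, 131 at an unadjusted p below 0.05), whereas a quasi-binomial model of the reads called 83 (11.0%). Ratios were separated in 173 genes (23.0%). The widest gap was in blot, which encodes a transporter-like protein. Its 2 TSCs lie 5745 bases apart at chr3L:17414592-17414641 and chr3L:17408847-17408922. The first took 71.6%, 93.8% and 96.3% of the reads of both in 8-11 h, against 10.0%, 23.4% and 48.5% in 5-8 h, and at 5-6 h that share rests on 20 reads (exact 95% interval 1.24% to 31.7%). The share was higher in each later window. In RPM the first TSC had 57.8, 91.3 and 114 in 8-11 h, against 6.99, 13.9 and 41.9 in 5-8 h, and the second had 22.9, 6.07 and 4.37 in 8-11 h, against 62.9, 45.6 and 44.4 in 5-8 h, so that both contributed. In bol, an RNA-binding protein gene, the stronger TSC took 95.9%, 97.9% and 97.3% of reads in 8-11 h, against 42.9%, 72.9% and 76.4% in 5-8 h (log2 ratio difference 4.18, SE 0.61, limma adjusted p = 0.0544). CG42238 uses TSCs 83073 bases apart. Its stronger TSC took 95.4%, 98.0% and 99.2% of reads in 8-11 h, against 64.2%, 75.8% and 81.7% in 5-8 h (4.03, SE 0.67, adjusted p = 0.0544). There the weaker TSC differed more, with 21.4, 5.10 and 2.33 RPM in 8-11 h, against 168, 107 and 101 RPM in 5-8 h. In ab, a zinc finger gene, the share was already high, with 99.4%, 99.6% and 99.9% in 8-11 h, against 86.7%, 96.4% and 98.0% in 5-8 h.

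**Figure D5:**
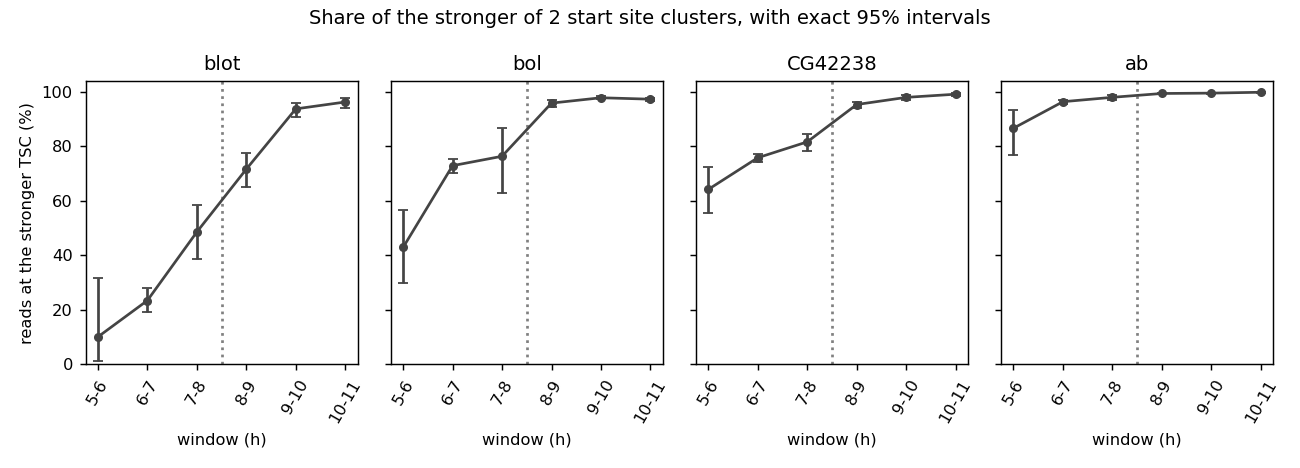
Percent of the reads of a gene's 2 strongest TSCs that fall on the stronger of them, by window in hours after egg laying, for the 4 genes with the widest separated gap; bars are exact 95% binomial intervals (counting error only) and the dotted line parts the blocks. In blot the share goes through 48.5% at 7-8 h and 71.6% at 8-9 h, and in ab it stays above 86% throughout.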

How the data were processed

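The deposited tables gave RPM per TSC and per gene, scaled by the authors to each library's reads in TSCs after mapping with STAR (dm3). The authors' BED file gave other values, the TSC positions, printed here counted from 1; their strand and gene come from it. All libraries had been barcoded at reverse transcription and handled as a single pool. Whole reads were recovered (100% of TSC values lay within 0.001 of a whole read), and adding up TSCs returned all 10622 gene values. Symbols were found for 10252 gene IDs. Exon and UTR annotation of the files' build was not used here, nor were promoter sequences. A table of smoothed Z-scores was not used.

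Genes and TSCs with at least 10 RPM in 3 of the 6 windows were fitted with limma 3.58.1 (trend, robust; R 4.3.3) on log2(RPM + 1), with Benjamini-Hochberg adjustment; edgeR 4.0.16 and DESeq2 1.42.0 ran on recovered reads. Differences are 8-11 h minus 5-8 h. Scripts were tested on simulated data. The blocks, gene lists and tests were chosen with earlier results of these data known. The naming rule asked for called genes with separated windows and at least 25 RPM in the higher block, 12 in each direction, up to 4 listed members and those that define a list. As none was called, it was applied without the call, a decision made after that result, as were the slope fit, the fit without robust variances and the use of separated counts. Listed genes missing from the table were not analysed here.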

Additional observations from a re-analysis of the deposited data

How the results depend on the processing

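The absence of called genes held under pseudocounts of 0.5 and 5 RPM, without a filter, with TMM scaling (median shift 0.02 on the log2 scale) and with edgeR. It did not hold under other settings: a filter of 25 RPM gave 1 gene, random thinning to the depth of 5-6 h 32, DESeq2 570 and the spread of all 23 windows 333, and the settings added after the data were seen gave 1 without robust variances, 915 for the slope and 509 for the slope without 5-6 h. Leaving out 1 window gave 0 to 188 genes, the highest without 8-9 h, and 74 without 7-8 h. TSC calls numbered 1 with the 25 RPM filter, 51 after thinning, 374 without a filter, 170 with edgeR, 678 with DESeq2, 392 with the 23-window spread, 1045 and 612 for the 2 slopes, and 0 to 180 without 1 window. For TSCs without a gene the counts were 9 without a filter, 1 after thinning, 3 with edgeR, 18 with DESeq2, 7 with the 23-window spread, 23 and 12 for the slopes, and 0 to 2 without 1 window. For the ratio of 2 TSCs they were 9 with 2 reads added, 8 with 50 reads required, 1 with 10 reads, 83 in the quasi-binomial model, 21 with the 23-window spread, 82 for the slope, and 0 to 20 without 1 window. The causes were not tested. No filter moved the median log2 difference to 0.12. Separated genes numbered 1145 higher and 1155 lower without 5-6 h, 1412 and 1301 without 7-8 h, and 1349 and 1329 without 8-9 h, where fewer windows have to be parted. Of 24 cell cycle genes 12, 17 and 15 were then lower, and of 15 contractile genes 8, 13 and 11 higher. Of the genes on the lists or named, thinning turned the sign of 25 of 273, none of them called, and called 6 others; it rests on 1 random draw. No paired analysis was possible because the windows of a block are different hours and share no pairing.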
